A study of Mus musculus with 6 samples.

Results

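The genes described here are 7 CXC chemokine genes that lie side by side on mouse chromosome 5: Cxcl1, Cxcl2, Cxcl3, Cxcl5, Cxcl15, Pf4 and Ppbp. They were chosen by name from a table of 54532 genes, by a rule that uses no measured value, although earlier results of these data were known when the family was picked. RNA was sequenced from cultured aortic cells of wild-type male mice that the labels name endothelial cells. Vehicle cultures (3 libraries) stood for 8 h in starvation medium, and LPS cultures (3 libraries) received 500 ng/mL lipopolysaccharide, an outer membrane component of Gram-negative bacteria, for the same time. Each of 3 cell isolations gave 1 culture of each kind, so both groups share genotype, sex, tissue and isolation and differ by LPS alone as far as the labels say. The comparison asks which of these genes respond to LPS.

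CXC chemokines are small secreted proteins that guide leukocytes along a gradient held on the vessel wall. Cxcl1, Cxcl2, Cxcl3 and Cxcl5 carry the ELR motif in front of their first cysteines and attract neutrophils through the receptor Cxcr2. Cxcl15, known as lungkine, was described in mouse lung epithelium. Pf4 (platelet factor 4) lacks the motif and binds heparin, and Ppbp is the precursor from which neutrophil-activating peptide is cut. Both are products of megakaryocytes and platelets. In stromal and endothelial cells the inducible members are textbook targets of the transcription factor NF-kB, and their mRNAs are short-lived because of AU-rich elements in the 3′ untranslated region.

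All 7 genes lie on the + strand of GRCm38 within 146579 bases of chromosome 5, and no other protein-coding gene lies between them. In order along the chromosome they are Cxcl5 (ENSMUSG00000029371, chr5:90759360-90761624), Ppbp (ENSMUSG00000029372, chr5:90768518-90770063), Pf4 (ENSMUSG00000029373, chr5:90772435-90773383), Cxcl3 (ENSMUSG00000029379, chr5:90786103-90789600), Cxcl15 (ENSMUSG00000029375, chr5:90794534-90803067), Cxcl1 (ENSMUSG00000029380, chr5:90891241-90893115) and Cxcl2 (ENSMUSG00000058427, chr5:90903871-90905938). Between them lie 4 non-coding genes with at most 5 counts each over the 6 libraries. One of these, the miRNA gene Gm24322, lies antisense within Cxcl15 and had 0 counts.

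The promoters of Cxcl1, Cxcl2 and Cxcl3 are shown first, as genes called higher under LPS whose promoters share short stretches of sequence. That of Cxcl15, which was not called, is set beside them. RefSeq promoters (GRCm38.p6, + strand) were at hand for 6 of the 7 genes, and Cxcl5 was not among them. The windows run from 120 bases before to 20 bases after the annotated start, at chr5:90891125-90891264 for Cxcl1, chr5:90903779-90903918 for Cxcl2, chr5:90785981-90786120 for Cxcl3 and chr5:90794414-90794553 for Cxcl15. Capitals mark matches to the NF-kB consensus, searched on both strands.
Cxcl1: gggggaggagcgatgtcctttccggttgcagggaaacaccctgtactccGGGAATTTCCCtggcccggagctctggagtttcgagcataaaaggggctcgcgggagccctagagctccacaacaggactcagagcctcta
Cxcl2: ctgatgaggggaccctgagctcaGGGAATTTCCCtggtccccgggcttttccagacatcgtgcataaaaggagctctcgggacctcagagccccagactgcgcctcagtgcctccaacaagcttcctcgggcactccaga
Cxcl3: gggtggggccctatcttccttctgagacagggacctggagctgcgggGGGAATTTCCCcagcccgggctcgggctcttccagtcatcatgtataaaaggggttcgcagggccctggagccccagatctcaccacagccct
Cxcl15: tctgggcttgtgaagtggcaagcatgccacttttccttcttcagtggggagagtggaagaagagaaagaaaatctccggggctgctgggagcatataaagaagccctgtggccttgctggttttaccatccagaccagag
Cxcl1, Cxcl2 and Cxcl3 held the same 11 letters, GGGAATTTCCC, in which a forward and a reverse match to the consensus overlap. The forward match began 71, 97 and 73 bases before the start, respectively. These 11 letters were not the longest stretch that the promoters of Cxcl1, Cxcl2 and Cxcl3 shared. A stretch of 13 letters, which is no match to the consensus, was also common to them. The coding sequences of these genes are alike as well, with 76.5 to 89.7% identity between pairs. Any part of that likeness in the shared promoter letters was not tested. The 11 letters were found in 14 of 32851 RefSeq promoters of the same length (0.0426%), and any match to the consensus in 4.51%. The promoters of Cxcl15, Pf4 and Ppbp held no consensus match in the 300 bases searched. A match is a description of the letters and not evidence of binding.

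Other short motifs were searched in the same 300-base promoters. ATAAAAG, found in 5.42% of promoters, lay 34, 57 and 29 bases before the start of Cxcl1, Cxcl2 and Cxcl3, and in Cxcl3 it overlaps a TATAAA match. TATAAA, found in 13.6% of promoters, also lay 27 bases before the start of Cxcl15, and 30 and 8 bases before that of Ppbp. Ppbp held ATAAAAG on the reverse strand and the AP-1 motif TGANTCA (7.81% of promoters), and Pf4 held the C/EBP motif TTGCNNAA (10.8%). All of these motifs were searched on both strands. Calls were also counted among genes with an NF-kB consensus match, and any part of the match in them was not tested. Of 651 tested genes outside the family with an NF-kB consensus match, 23.5% were called higher under LPS and 26.6% lower, against 25.6% and 25.3% of the 10301 tested genes that have a promoter in the table. Of the other genes with the 11 letters, 2 were tested and neither was called, Hpn (log2 fold change 0.41, edgeR adjusted p = 0.535) and Il16 (log2 fold change -0.23, edgeR adjusted p = 0.106).

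The second set of sequences is from the 3′ untranslated regions, where AU-rich elements lie, and shows the densest such stretch of 30 bases in the genes that had most of them (GENCODE M21 transcripts). Capitals mark the pentamer ATTTA and its overlapping copies.
Cxcl1, bases 79 to 108 after the stop codon: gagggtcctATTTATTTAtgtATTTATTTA
Cxcl2, bases 123 to 152 after the stop codon: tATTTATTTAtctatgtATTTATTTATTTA
The Cxcl1 stretch holds 4 copies of ATTTA and the Cxcl2 stretch 5. Over the first 300 bases after the stop codon, Cxcl1 held 6 ATTTA and 5 TATTTAT, and Cxcl2 held 7 and 5. Cxcl3 had 2 ATTTA there and Cxcl5, Cxcl15 and Ppbp had 1 each, none of these with a TATTTAT. Among 15670 genes with at least 300 bases of 3′ untranslated region, the median was 0 ATTTA, 3.38% had 3 or more, and 6.9% had a TATTTAT. Over their whole 3′ untranslated regions, Cxcl1 (592 bases) held 7 ATTTA and 6 TATTTAT, and Cxcl2 (734 bases) held 11 and 7. Cxcl3 (645 bases) held 5 and 2 there, and Cxcl5 (1111 bases) held 5 and 1. Any part of these elements in the fold changes given below was not tested.

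Total counts per library ranged from 16509197 to 25082714. Counts were scaled to CPM, counts at a common library size after correction for library composition, and levels of different genes were compared as RPKM, the CPM per kilobase of gene length. Groups were compared by the quasi-likelihood test of edgeR over all 14508 genes with enough counts, and genes with an adjusted p below 0.05 were called. Of the 7 chemokine genes, 5 passed the filter on low counts, 4 were called higher under LPS and 0 lower. Over all tested genes, 24.9% were called higher and 24.4% lower. The count of 4 carries the caveat that Cxcl3 reached the filter level in its 3 LPS libraries and in 0 Vehicle libraries, so it could be tested only because it was high under LPS. In each of the 4 called genes all 3 LPS libraries lay above all 3 Vehicle libraries, as they did in 31.1% of the tested genes. In bulk RNA, more cells that express a gene and more RNA per cell cannot be told apart.

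**Figure D1:**
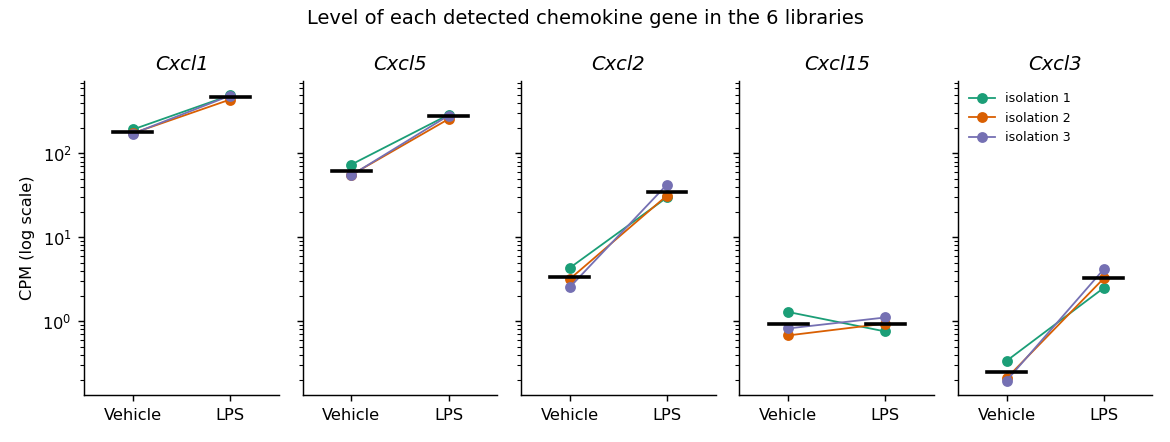
CPM (log axis) of the 5 detected chemokine genes in Vehicle and LPS, with 1 point per library, lines joining the libraries of 1 isolation and black bars for the group means. The lines of Cxcl1, Cxcl5, Cxcl2 and Cxcl3 rise in all 3 isolations, while those of Cxcl15 cross.

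Cxcl1, the most abundant of the family and the gene once called KC, was well expressed before any LPS. Its levels were 193, 174 and 172 CPM in Vehicle 1, 2 and 3 and 493, 439 and 489 CPM in LPS 1, 2 and 3, from 3333 to 10445 counts per library. The groups lay far apart, and the libraries within a group differed little. Cxcl1 thus rose by 1.40 on the log2 scale (SE 0.0924, edgeR adjusted p = 0.000169), a fold of 2.64. Within the isolations the fold was 2.56, 2.53 and 2.84, the narrowest spread among the responding members. Ranked by mean CPM it was gene 494 of 54532, while by fold change it was 200 of 14508.

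Cxcl5, which encodes the chemokine LIX, was the next most abundant. It stood at 73.7, 55.4 and 55 CPM in Vehicle and at 289, 257 and 283 CPM under LPS. All LPS libraries were above all Vehicle libraries, and Vehicle 1 was the highest of its group. Cxcl5 rose by 2.17 on the log2 scale (SE 0.126, edgeR adjusted p = 0.000169), a fold of 4.51 that ranked 29 of 14508. The folds within isolations were 3.92, 4.64 and 5.15.

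Cxcl2, also known as MIP-2, was a low gene in Vehicle and a moderate one under LPS. Its CPM were 4.32, 3.18 and 2.54 in Vehicle, from 61 to 77 counts, and 29.9, 31.5 and 42.6 under LPS, from 504 to 846 counts. The groups did not overlap, and isolation 3 held both the lowest Vehicle and the highest LPS value. Cxcl2 rose by 3.39 on the log2 scale (SE 0.215, edgeR adjusted p = 0.000169), a fold of 10.5 that ranked 6 of 14508. The folds within isolations spread from 6.91 and 9.91 to 16.8, wider than for Cxcl1 and Cxcl5.

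Cxcl3, the closest relative of Cxcl2 in sequence, was barely detected without LPS. It had 6, 4 and 5 counts in Vehicle and 53, 52 and 83 under LPS, or 0.337, 0.209 and 0.196 CPM against 2.50, 3.25 and 4.18 CPM. The groups did not overlap, and isolation 3 had the lowest Vehicle and the highest LPS CPM. In counts, however, Vehicle 2 was the lowest (4, against 5 in Vehicle 3). Cxcl3 rose by 3.74 on the log2 scale (SE 0.387, edgeR adjusted p = 0.00103), a fold of 13.4 that ranked 4 and rests on a few counts per Vehicle library. The folds within isolations were 7.42, 15.6 and 21.4. Without both libraries of isolation 2, Cxcl3 was no longer called (log2 fold change 3.67, edgeR adjusted p = 0.0644).

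The values of Cxcl3 are uncertain for another reason, its similarity to Cxcl2. The coding sequences of Cxcl2 and Cxcl3 were identical at 89.7% of 300 aligned bases, with an unbroken identical stretch of 110 bases, and 5.75% of the 50-base stretches of the Cxcl2 transcript also occur in Cxcl3. Cxcl3 counts were 7.79, 6.56 and 7.69% of the Cxcl2 counts in Vehicle and 8.37, 10.3 and 9.81% under LPS. All 3 LPS percentages were thus above all 3 Vehicle percentages, and how the authors' counting split shared reads was not tested. Cxcl1 was 78.8% identical to Cxcl2 and 76.5% to Cxcl3 in coding sequence, with no shared 50-base stretch, so its counts do not carry this doubt.

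Cxcl15, the lung chemokine, showed no change that the test could resolve. It had 23, 13 and 21 counts in Vehicle and 16, 15 and 22 under LPS, or 1.29, 0.678 and 0.821 CPM against 0.755, 0.938 and 1.11 CPM. The groups overlapped throughout, and isolation 1 had the lower value under LPS while isolations 2 and 3 had the higher. The log2 fold change was 0.02 (SE 0.384, edgeR adjusted p = 0.978). With a standard error of that size, a small or moderate difference was not detectable at this depth. Over the alternative settings the log2 fold change ran from -0.261 to 0.43.

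The platelet genes were not detected beyond 1 count. Pf4 had 0 counts in all 6 libraries. Ppbp had 0 counts in 5 libraries and 1 count in LPS 3. A count of 0 over a group allows up to 0.048 CPM in Vehicle and 0.0526 CPM under LPS, counting error only, and neither gene was tested.

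Per kilobase, the order of the levels in Vehicle was Cxcl1 (95.8 ± 6.12 RPKM, SD, n = 3), Cxcl5 (32.9 ± 5.75), Cxcl2 (1.62 ± 0.437), Cxcl15 (0.437 ± 0.151) and Cxcl3 (0.0706 ± 0.0223). Under LPS it was Cxcl1 (253 ± 16.1 RPKM, SD, n = 3), Cxcl5 (148 ± 9.21), Cxcl2 (16.8 ± 3.35), Cxcl3 (0.947 ± 0.241) and Cxcl15 (0.439 ± 0.0831). Neighbours in each order differed by more than their SDs. Cxcl3 and Cxcl15 changed places, and the other ranks were the same in both groups. The 3 members with low levels in Vehicle were thus not alike under LPS, since Cxcl2 and Cxcl3 were called higher and Cxcl15 was not.

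Summed over the 7 genes, the level was 145, 124 and 123 RPKM in Vehicle and 434, 389 and 435 RPKM under LPS, a fold of 3.2. The groups did not overlap, and the exact permutation test gave p = 0.1 (2-sided), the smallest that 3 against 3 libraries allow. Cxcl1 and Cxcl5 together made up nearly all of this sum in every library. The share of Cxcl1 was 70.8, 74.6 and 74.7% in Vehicle and 60.6, 60.3 and 59.9% under LPS. The share of Cxcl5 was 27.2, 23.9 and 24% against 35.8, 35.5 and 34.9%. Cxcl1 was therefore a smaller part of the pool under LPS in every isolation, although its own level rose, while Cxcl5 was a larger one.

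Cxcl2 had a share of 1.22 ± 0.221% in Vehicle and 4 ± 0.704% under LPS (SD, n = 3 each). The shares of Cxcl3 were 0.0532 ± 0.0114% and 0.226 ± 0.0559%, and those of Cxcl15 were 0.329 ± 0.082% and 0.105 ± 0.0203%. None of these shares overlapped between the groups, and each exact permutation test gave p = 0.1 (2-sided), again the smallest possible. Shares of a sum are tied to each other, so a larger share of Cxcl5 is not independent of a smaller share of Cxcl1. The sizes depend on the length used, and the coding transcript was taken as an alternative after seeing the data. Per kilobase of it, the mean share of Cxcl1 was 81.6% in Vehicle and 70.3% under LPS, and that of Cxcl5 16.8% and 24.8%. That of Cxcl3, with 1016 bases in place of 3498, was 0.104% and 0.461%. The order of the 5 detected genes was the same with either length.

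**Figure D2:**
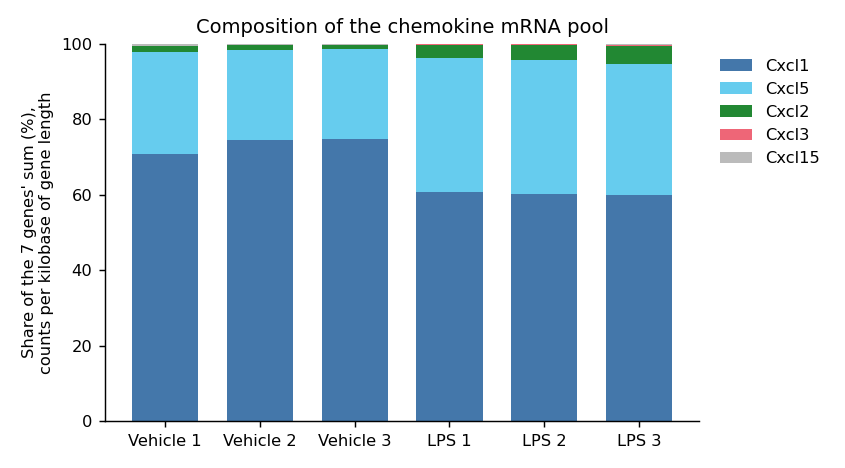
Share of each gene in the summed level of the 7 chemokine genes (%, counts per kilobase of gene length), with 1 bar per library. Cxcl1 takes 70.8 to 74.7% of the Vehicle bars and 59.9 to 60.6% of the LPS bars, and the Cxcl5 and Cxcl2 segments are taller in all 3 LPS bars.

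The 10 pairs among the 5 detected members were compared by the log2 ratio of their CPM in each library, with a prior count of 2 added to limit the noise of low counts. The ratio of Cxcl1 to Cxcl5 had a mean of 1.56 in Vehicle and 0.78 under LPS, a difference of -0.78. Over the 3 libraries of a group this ratio had an SD of 0.15 in Vehicle and 0.00993 under LPS. The latter was the smallest SD of any pair in either group, and an SD over 3 libraries is itself uncertain. The ratio of Cxcl1 to Cxcl2 differed by -1.95 and that of Cxcl2 to Cxcl5 by 1.17. For 9 pairs the exact permutation p was 0.1, the smallest possible, and the adjusted p over the 10 pairs was 0.111, so no pair passed an adjusted threshold of 0.05.

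The ratio of Cxcl2 to Cxcl3 depended on the prior count, because Cxcl3 had at most 6 counts in a Vehicle library. With the prior its mean was 3.30 in Vehicle and 3.36 under LPS, a difference of 0.06 (exact permutation p = 0.7, adjusted p = 0.7 over the 10 pairs). Without a prior count, an alternative chosen after seeing the data, it was 3.68, 3.93 and 3.70 in Vehicle and 3.58, 3.28 and 3.35 under LPS. All LPS values then lay below all Vehicle values, with a difference of -0.37 (exact permutation p = 0.1, the smallest possible, adjusted p = 0.1). By the folds of CPM within isolations, which carry no prior count, Cxcl1 responded least of the called members and Cxcl5 next in each of the 3 isolations. Cxcl3 then came above Cxcl2 in each, on 6, 4 and 5 Vehicle counts. With the prior count, the log2 ratio of Cxcl2 was above that of Cxcl3 in isolation 1 (2.76 against 2.57). It was also above in isolation 3 (4.02 against 3.86) and below in isolation 2 (3.27 against 3.44). The order of Cxcl2 and Cxcl3 thus depended on the prior count.

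**Figure D3:**
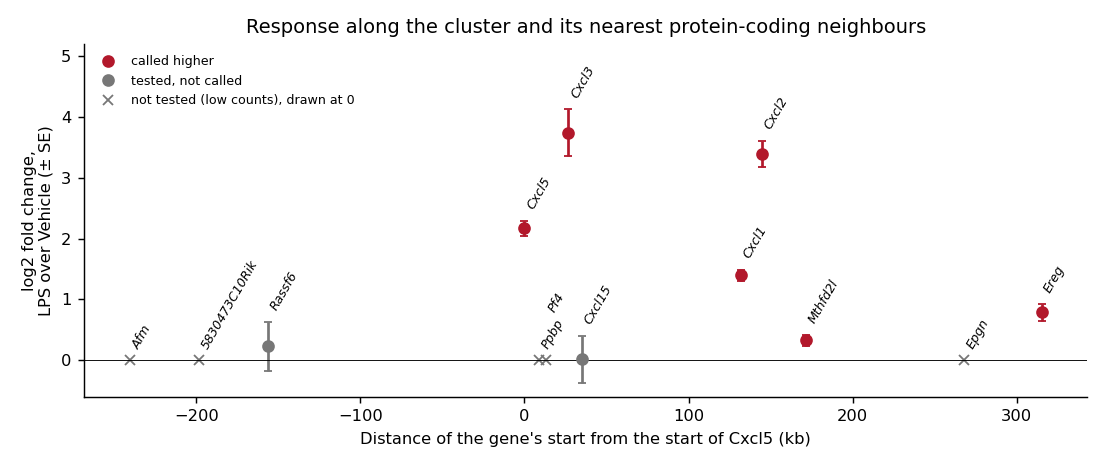
Log2 fold change of LPS over Vehicle (± SE, from edgeR) against the distance in kilobases from the start of Cxcl5, for the 7 chemokine genes and the nearest 3 protein-coding genes on each side. The called chemokine genes lie at 1.40 to 3.74, with Cxcl15, Pf4 and Ppbp between them not called or not tested.

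Along the chromosome the response was not continuous. Ppbp, Pf4 and Cxcl15, without a call, lie between called genes. On the Cxcl5 side, Afm, the gene of the plasma protein afamin, had 0 counts, 5830473C10Rik had 1 count in all, and Rassf6 was low (0.84 ± 0.185 CPM in Vehicle and 0.996 ± 0.353 CPM under LPS, SD, n = 3 each) and not called (edgeR adjusted p = 0.662). On the Cxcl2 side, Mthfd2l, a mitochondrial folate enzyme gene 25179 bases away, had a log2 fold change of 0.33 (edgeR adjusted p = 0.0175), but that call ended when Vehicle 1, 2 or 3 or LPS 2 was left out (edgeR adjusted p up to 0.0781). Epgn, the gene of the growth factor epigen, had too few counts to be tested. Ereg, which encodes the related growth factor epiregulin 168684 bases away, went from 208 ± 30.9 to 359 ± 58.6 CPM (SD, n = 3 each), a log2 fold change of 0.79 (edgeR adjusted p = 0.00209). The 4 called chemokine genes thus had larger fold changes than the tested genes among these neighbours.

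The profile of each gene over the 6 libraries was compared with the profiles of Cxcl1 and Cxcl2 by the root mean square distance of centred log2 CPM, again with a prior count of 2. Among members, Cxcl2 and Cxcl3 were nearest to each other (distance 0.117, or 0.221 without a prior count), followed by Cxcl1 and Cxcl5 (0.401), while Cxcl1 and Cxcl2 were 1.00 apart. Of 11841 other tested protein-coding genes that averaged 1 CPM or more, those nearest to Cxcl1 were Pdlim4 (0.1), the urokinase gene Plau (0.116), the MHC class I gene H2-K1 (0.157), the stromelysin gene Mmp3 (0.164) and the mitochondrial import gene Timm23 (0.165). The nearest to Cxcl2 were Sprr2e (0.337), the proenkephalin gene Penk (0.41), Lmo2 (0.437) and the colony-stimulating factor genes Csf3 (0.459) and Csf2 (0.464). Lmo2 averaged 0.186 ± 0.131 CPM in Vehicle and 3.72 ± 1.11 CPM under LPS (mean ± SD). Its Vehicle level was thus below that of Cxcl3 (0.247 CPM), which reached the filter level in no Vehicle library. Like Cxcl3, Lmo2 could be tested only because it was high under LPS. Without a prior count Lmo2 was no longer among the 5 nearest, so its place depended on the prior count. Cxcl2 had no gene outside the family as near as Cxcl3 with or without the prior, with the doubt over shared reads given above. A distance over 6 libraries describes likeness only.

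The receptors of these ligands were not detected. Cxcr1 and Cxcr2, the receptors through which the ELR chemokines act on neutrophils, had 0 counts in all 6 libraries. Cxcr3, a receptor for other CXC chemokines, averaged 0.0374 CPM in Vehicle and 0 under LPS, and the scavenger receptor Ackr1 averaged 0.159 and 0.0504 CPM. None had enough counts to be tested.

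Other signals to neutrophils rose beside the chemokines. Of 15 listed cytokines and related genes, 9 were tested, 8 rose and 1 fell, with a median log2 fold change of 2.2 against -0.00306 over all tested genes, of which 24.9% rose and 24.4% fell. S100a8 reached the filter level in no Vehicle library and could be tested only because it was high under LPS. Without it 7 of 8 rose and the median was 1.64. S100a8, a calcium-binding alarmin gene, was at 0.0735 ± 0.0863 CPM in Vehicle and 1.05 ± 0.546 CPM under LPS (SD, n = 3 each), a log2 fold change of 3.89 (edgeR adjusted p = 0.00357). Csf2 and Csf3, whose products drive the formation and survival of granulocytes, had log2 fold changes of 3.69 (edgeR adjusted p = 0.00104) and 2.56 (edgeR adjusted p = 0.00109). The lower gene was C3, the complement component (log2 fold change -0.46, edgeR adjusted p = 0.015), whose call ended without Vehicle 1 or LPS 2. C3 was named because it was the only one, after its value was seen. Tnf and Il1b, classical early cytokines, were at or near 0 and not tested.

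Among CXC chemokines outside the cluster, 3 of 8 were tested, 2 rose and 0 fell, against 24.9% and 24.4% of all tested genes. Cxcl10, an interferon-inducible attractant of T cells, rose by 2.10 on the log2 scale and Cxcl16, a membrane-bound chemokine, by 1.11 (edgeR adjusted p = 0.00647 and 0.000759). Cxcl12, the homeostatic chemokine of stromal cells, was not called (log2 fold change -0.20, edgeR adjusted p = 0.111). Without LPS 1 it was called lower, while with an offset for gene length its sign turned (0.17, edgeR adjusted p = 0.124).

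Among listed regulators of the cluster, more genes were called higher than lower. Of 18 listed NF-kB genes and co-factors, all were tested, 9 rose and 3 fell, against 24.9% and 24.4% of all tested genes, with a median log2 fold change of 0.27. Nfkb1, the most abundant of those not called, averaged 279 ± 5.87 and 284 ± 17.8 CPM in Vehicle and LPS (SD, n = 3 each, edgeR adjusted p = 0.826), although an offset for gene length called it higher (log2 fold change 0.58, edgeR adjusted p = 0.00155). Fosl1, an AP-1 subunit gene, rose by 0.84 and the stress factor Atf3 by 1.04 on the log2 scale (edgeR adjusted p = 0.00781 and 0.0306), while Sp1, a GC-box factor, fell by 0.98 (edgeR adjusted p = 0.00144). The Atf3 call ended with the replicate block (edgeR adjusted p = 0.0508) and when any single library was left out. With the length offset 1 gene of the list was called lower in place of 3. When a single library was left out, 6 to 9 genes were called higher and 2 to 4 lower.

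Genes that act on the stability of chemokine mRNAs had as many calls in one direction as in the other. Of all 13 listed, 13 were tested, 4 rose and 4 fell, with a median log2 fold change of 0.02. Over all tested genes the shares were 24.9% and 24.4%. With the length offset 6 rose, 3 fell and the median was 0.2. Zc3h12a, which encodes the RNase regnase-1, rose by 0.73 and Hnrnpd, which encodes the AU-rich element binding protein AUF1, by 0.53 on the log2 scale (edgeR adjusted p = 0.00113 and 0.00201). Rc3h1, which encodes roquin-1, fell by 0.65 (edgeR adjusted p = 0.00148), a call that ended with the length offset (edgeR adjusted p = 0.212). Srsf1, a splicing factor that binds chemokine mRNAs and was the most abundant of those not called, averaged 249 ± 8.68 and 252 ± 7.73 CPM in Vehicle and LPS (SD, n = 3 each, edgeR adjusted p = 0.883). It was called higher with the transcript length offset (log2 fold change 0.40, edgeR adjusted p = 0.00583) and with the length offset and replicate block together (0.20, edgeR adjusted p = 0.0333). Without Vehicle 1, 2 of these genes were called higher in place of 4.

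On the side of the vessel wall, genes for neutrophil arrest and crossing showed no shared direction. Of 13 tested, 3 rose and 5 fell, against 24.9% and 24.4% of all tested genes, with a median log2 fold change of -0.09. Jam3, a junctional adhesion molecule gene, rose by 0.71, while its relative Jam2 fell by 0.56 and the E-selectin ligand gene Glg1 fell by 1.13 on the log2 scale (edgeR adjusted p = 0.00368, 0.0015 and 0.00212). Icam1, the ligand of neutrophil beta-2 integrins, was not called, with 120 ± 5.28 CPM in Vehicle and 135 ± 32.6 CPM under LPS (SD, n = 3 each, edgeR adjusted p = 0.367). The number of genes called lower was between 2 and 3 when Vehicle 1, 2 or 3 or LPS 2 or 3 was left out.

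Proteases and glycan genes, whose products trim chemokines or hold them on the cell surface, were called higher in some cases and lower in others. Of 19 tested, 6 rose and 7 fell, against 24.9% and 24.4% of all tested genes, with a median log2 fold change of -0.17. The balance turned with the length offset, to 7 higher and 6 lower with a median of 0.02. Mmp12, a macrophage elastase gene known to cut ELR chemokines, rose by 2.46 but reached the filter level in no Vehicle library, and the collagenase gene Mmp1a by 1.92 on the log2 scale (edgeR adjusted p = 0.00351 and 0.00292). Ndst1, which sulfates the heparan chains to which chemokines bind, fell by 1.45 on the log2 scale, from 160 ± 13.6 to 58.4 ± 21.4 CPM (SD, n = 3 each, edgeR adjusted p = 0.00144). Mmp2, a gelatinase gene, was the most abundant of those not called (edgeR adjusted p = 0.137), and an offset for gene length called it lower (edgeR adjusted p = 0.035). It was also called lower without LPS 1 (edgeR adjusted p = 0.0129) and without isolation 1 (edgeR adjusted p = 0.0353). The number called lower was 4 without Vehicle 1, Vehicle 2, LPS 2 or LPS 3.

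Markers of cell types were read beside these results. Of 15 endothelial markers, Pecam1, Cdh5, Kdr, Tek, Tie1, Emcn, Vwf, Robo4 and Nos3 averaged at most 0.482 CPM in both groups and Cldn5 was at 0, and Eng, which other stromal cells share, made up most of the summed level of 312 to 314 CPM in Vehicle and 296 to 314 CPM under LPS. Other listed endothelial genes were present: Plvap averaged 13.3 CPM in Vehicle and 16 CPM under LPS, Erg 8.29 and 5.47 CPM (called lower, edgeR adjusted p = 0.0205), and Egfl7 2.95 and 4.5 CPM, with Esam lower (0.511 CPM in Vehicle). Of the arrest list, the selectin genes Selp and Sele of activated endothelium averaged 576 and 53 CPM in Vehicle. The labelled cell type was thus met by some of its markers, while defining ones such as Pecam1, Cdh5 and Cldn5 were at or near 0. Fibroblast markers, led by Col1a1 and Col1a2, summed to 6408 to 7642 CPM in Vehicle and 4183 to 5709 CPM under LPS (3 of 10 called higher, 3 lower). Pericyte markers, led by Rgs5 and Pdgfrb, summed to 1896 to 2020 and 1376 to 1658 CPM (0 of 7 higher, 4 lower). Over all tested genes the shares were 24.9% higher and 24.4% lower. With the length offset, 2 fibroblast and 3 pericyte markers were called lower. Any part of these marker differences in the chemokine results was not tested. Neutrophil markers summed to 0.225 to 0.678 CPM and 1.23 to 2.82 CPM, with S100a8 and Camp, neither at the filter level in any Vehicle library, called higher and S100a9, Cxcr2, Mpo, Elane and Retnlg at 0. Macrophage markers summed to 5.67 to 7.13 and 6.85 to 9.26 CPM, with Ptprc, Adgre1, Tyrobp and the C1q genes at 0 and none called. Platelet markers other than Itgb3, which many cells express, were at or below a few CPM, with Gp1bb and Gp6 at 0. Smooth muscle markers, led by Acta2 and Smtn, summed to 428 to 450 and 476 to 589 CPM, and epithelial markers, almost all Krt19, to 25.5 to 32 and 44.5 to 89 CPM.

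The responses of the chemokine genes held under most other ways of processing. Cxcl1, Cxcl2 and Cxcl5 kept their calls in all 21 alternatives, with log2 fold changes of 1.08 to 1.46, 3.04 to 3.70 and 1.86 to 2.32. Without isolation 2, the test called 8 genes higher and 0 lower in the whole table (2587 and 2469 at an unadjusted p below 0.05), and Cxcl1, Cxcl2 and Cxcl5 were among the 8. Of the 27 called genes outside the family that are named by rule above, 2 were also called there, Sprr2e and Penk. The others kept their direction. Many of them, such as Csf2, Csf3, Plau and Mmp3, had the same edgeR adjusted p as Cxcl3, 0.0644, and the highest was 0.239 (Mthfd2l).

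**Figure D4:**
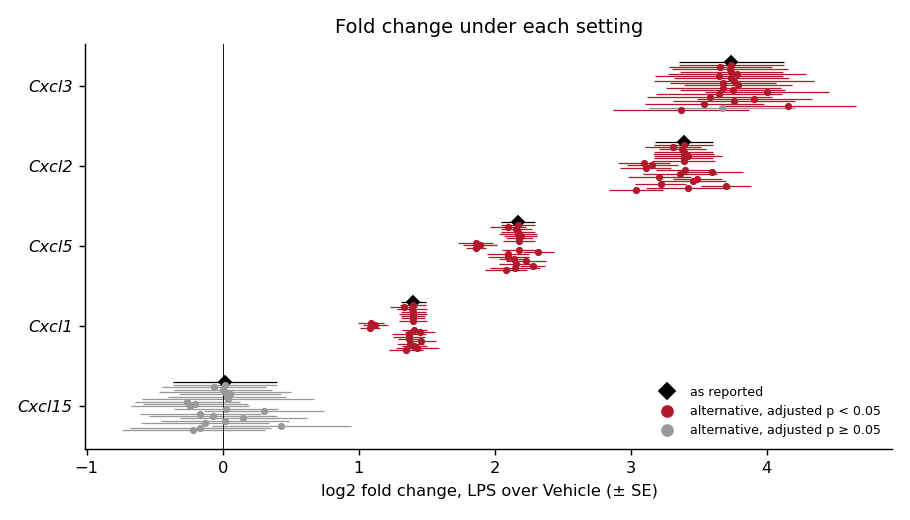
Log2 fold change of LPS over Vehicle (± SE) of each tested chemokine gene as reported (black diamonds) and under each alternative (circles, red where the adjusted p was below 0.05 and grey otherwise). The points of Cxcl1, Cxcl2, Cxcl3 and Cxcl5 all lie above 1 with 1 grey point for Cxcl3, and those of Cxcl15 lie on both sides of 0.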

How the data were processed

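The authors deposited 1 table of whole-number read counts for each gene, without normalization, beside its position and length, per the file headers. Paired-end reads came from total RNA, per the labels' protocols. The submitters' processing notes name HISAT2 and the build GRCm38 (mm10). The counting tool is not given in the sources used here, nor is its strand setting, its handling of reads with several matches or its annotation, so the reads of genes that overlap are not separable. LPS columns are named as such, and the columns numbered M1 to M3 with no treatment in the name were assigned to the Vehicle libraries because no other samples remain.

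Counts were fitted with edgeR 4.0.16 in R 4.3.3 (TMM normalization, filterByExpr by group with a minimum count of 10, 2-sided quasi-likelihood F-test, group as the only term), with Benjamini-Hochberg adjustment over 14508 genes. The script was tested on simulated data. Log2 CPM of single libraries carry a prior count of 2. SE is that of the fitted log2 fold change and SD is between libraries. A library with 0 counts of a gene may hide up to 3, which is 0.117 to 0.188 CPM (counting error only). Single values were compared by exact permutation tests, 2-sided, of the 3 Vehicle against the 3 LPS libraries, without the pairing by isolation. A paired sign-flip test on 3 isolations could give no p below 0.25. The labels give 3 separate cell isolations and no number of animals, and p-values measure the spread between those isolations.

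Each number marks 1 isolation that gave both cultures, per the labels, so the numbers pair the libraries. After subtracting group means, the correlation across genes between the libraries of a pair was 0.0958, -0.045 and 0.206 (genes are not independent replicates).

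Genes were named by rule: the 7 members, the receptor list, the nearest 3 protein-coding genes on each side, the 3 called genes with the largest change and the most abundant gene without a call of each other list, the 5 genes nearest to Cxcl1 and to Cxcl2, and the most abundant markers. Members and lists were chosen with earlier results of these data known. Promoters are from RefSeq (GRCm38.p6) and transcripts from GENCODE M21.

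Alternatives were DESeq2 1.42.0 and its size factors, library sizes alone, no filter, at least 1 CPM in 3 libraries, limma-voom (limma 3.58.1), protein-coding genes alone, the isolation as a replicate block in edgeR and DESeq2, an offset for gene or transcript length (natural spline, 5 degrees of freedom) with and without the block, and leaving out each library and each isolation.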

Additional observations from a re-analysis of the deposited data

How the results depend on the processing

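Of 21 alternatives, Cxcl1, Cxcl2 and Cxcl5 kept direction and call in all, with a highest edgeR adjusted p of 0.0465, 0.0374 and 0.0374, and Cxcl3 in 20. With libraries or isolations left out, the log2 fold change of Cxcl3 ranged from 3.37 to 4.16, and it lost its call without isolation 2 (3.67, adjusted p = 0.0644), when 4 libraries remain. The sign of Cxcl15, never called, turned with library sizes alone (-0.0631), the length offset (-0.261), the transcript length offset (-0.203) and the length offset with the replicate block (-0.242), and ranged from -0.216 to 0.43 with libraries or isolations left out. The stricter filter of at least 1 CPM removed Cxcl15 from the test. With the replicate block in edgeR, no member changed its call (adjusted p = 5.96e-05 for Cxcl1, 6.19e-05 for Cxcl2, 0.000231 for Cxcl3, 1.44e-05 for Cxcl5 and 0.96 for Cxcl15). Over the whole table, the number of genes called higher ranged from 8 to 4362 and lower from 0 to 4463 with libraries or isolations left out, the lowest without isolation 2. Genes called lower were 3534 as reported, 2339 with the length offset and 1996 with the transcript length offset; the cause was not tested. The difference in share between LPS and Vehicle with the coding transcript length, chosen after seeing the data, was -11.4 percentage points for Cxcl1, 8.02 for Cxcl5, 0.358 for Cxcl3 and -0.124 for Cxcl15, and for Cxcl3 0.321 without division by length. Without a prior count, chosen after seeing the data, the difference between LPS and Vehicle in the log2 ratio of Cxcl2 to Cxcl3 turned from 0.0587 to -0.37, and the other 9 ratios kept their direction. Over all tested genes, the median change (log2) moved from -0.00306 to -0.0756 with library sizes alone and to 0.0473 with the length offset. Depth limits Cxcl3 in Vehicle (at most 6 counts) and Cxcl15 (at most 23).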
